A study of Homo sapiens with 30 samples.

Results

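The cholesterol synthesis genes described here were 8 genes given by name: HMGCS1, IDI1, FDFT1, SQLE, LSS and DHCR7, which encode enzymes of the pathway, and SREBF2 and INSIG1, which encode its regulators. They were taken by symbol from the 56303 genes in each of the overexpression and knockdown tables and by Ensembl identifier from the 60612 genes in the RBPMS knockout table, and all 8 were found and passed the filter on low counts in every comparison. RNA-seq was run on 30 libraries of 5637 cells, a human bladder carcinoma cell line grown in RPMI medium with fetal bovine serum, as 10 groups of 3 replicates. The knockout experiment held KO1 and KO2, edited at RBPMS, an RNA-binding protein gene, with a different sgRNA each, and the control groups WT1 and WT2. The labels call these WT and the paper names its controls sgCtrl, so whether they carried a control sgRNA is not settled here. The overexpression experiment held cells carrying the ANKRD10-1 or the ANKRD10-2 transcript of ANKRD10 and cells with the vector only (Vector). The knockdown experiment held cells transfected with siANKRD10-1 or siANKRD10-2, siRNAs against those transcripts, or with siNC, a control siRNA. The question put to these genes was how far each treatment moved their mRNA against its own control. The paper describes single-clone expansion of the knockout cells, so clonal differences and the edit cannot be told apart in KO1 and KO2. The labels do not say whether replicates were separate cultures, so p-values measure the spread between these libraries, which may be technical.

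Animal cells make cholesterol from acetyl-CoA through the mevalonate pathway. HMGCS1 joins acetyl units into HMG-CoA, from which mevalonate is made, and IDI1 isomerizes the isoprenoid unit that follows. FDFT1 joins farnesyl units into squalene, SQLE oxidizes squalene, LSS closes it into the ring of lanosterol, and DHCR7 carries out a last reduction to cholesterol. SREBF2 encodes SREBP2, a transcription factor held at the endoplasmic reticulum that is released when sterols are low and raises the genes of the pathway, its own included. INSIG1 retains the SREBP complex at the endoplasmic reticulum, and it is itself an SREBP target.

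SREBP binds the sterol regulatory element, often beside a CCAAT box bound by NF-Y, while MYC and MAX, like other E-box factors, bind CACGTG. RefSeq promoter windows of GRCh38.p14, from 250 bases before to 50 bases after a transcript start, were found for 6 members, 10 windows in all. SQLE and FDFT1 were not matched. Both strands were searched for the letters TCACNCCAC (sterol regulatory element), CCAAT (NF-Y box) and CACGTG (E-box). The first was present in 1.13% of 35116 windows of this length, the second in 34.61% and the third in 7.26%. At least 1 window of each of the 6 members held the NF-Y box. The sterol regulatory element was held by 1 member (SREBF2) and the E-box by 2 (INSIG1 and LSS). These are counts of genes, while the shares above count single windows. HMGCS1, IDI1 and DHCR7 each also had a window with none of the motifs. A match is a run of letters and was not tested as a binding site. Only these exact letters within the windows were searched, so a missing match does not show that an element is absent. The windows of the 3 members with one of the rarer motifs are shown, and that of HMGCS1, the member with the highest level per length, beside them. Each is written 5′ to 3′ on the strand of the gene, with matched motifs in capitals, and a match on the opposite strand reads as its reverse complement (ATTGG for CCAAT).
SREBF2: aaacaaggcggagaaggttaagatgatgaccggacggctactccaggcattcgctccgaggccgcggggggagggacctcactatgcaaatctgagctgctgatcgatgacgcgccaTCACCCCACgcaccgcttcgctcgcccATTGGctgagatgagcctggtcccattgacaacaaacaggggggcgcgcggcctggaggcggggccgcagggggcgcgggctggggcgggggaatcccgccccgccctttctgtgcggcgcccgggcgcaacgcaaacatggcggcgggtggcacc
INSIG1: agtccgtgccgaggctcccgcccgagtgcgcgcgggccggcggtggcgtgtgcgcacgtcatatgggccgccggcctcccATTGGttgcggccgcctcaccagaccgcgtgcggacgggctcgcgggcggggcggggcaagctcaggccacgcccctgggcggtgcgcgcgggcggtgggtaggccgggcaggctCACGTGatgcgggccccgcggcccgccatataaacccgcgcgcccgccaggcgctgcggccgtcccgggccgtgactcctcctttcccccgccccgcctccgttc
LSS: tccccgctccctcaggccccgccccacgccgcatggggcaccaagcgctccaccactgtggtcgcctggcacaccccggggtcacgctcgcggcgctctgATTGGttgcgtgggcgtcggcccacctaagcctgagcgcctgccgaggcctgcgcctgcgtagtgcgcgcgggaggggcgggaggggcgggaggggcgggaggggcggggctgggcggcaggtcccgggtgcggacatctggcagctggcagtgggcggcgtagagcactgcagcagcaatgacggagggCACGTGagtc
HMGCS1: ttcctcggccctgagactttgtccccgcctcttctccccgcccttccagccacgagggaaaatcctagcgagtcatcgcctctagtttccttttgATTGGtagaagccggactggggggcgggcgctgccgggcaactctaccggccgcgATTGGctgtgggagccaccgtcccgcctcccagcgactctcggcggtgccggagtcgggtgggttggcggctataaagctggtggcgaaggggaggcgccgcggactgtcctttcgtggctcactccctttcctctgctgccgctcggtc
The SREBF2 window (chr22:41832855-41833154, plus strand) held the sterol regulatory element from base −133 and an NF-Y box from base −106, counted from the transcript start. The INSIG1 window (chr7:155297628-155297927, plus strand) held an NF-Y box from base −170 and the E-box from base −55. The LSS window (chr21:46228725-46229024, minus strand) held an NF-Y box from base −150 and the E-box from base 41, within the transcript. The HMGCS1 window (chr5:43313363-43313662, minus strand) held NF-Y boxes from bases −155 and −100. No motifs overlapped in these 4 windows.

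Total counts per library ran from 44593108 to 69723937 in the knockout table, from 31736779 to 47493499 in the overexpression table and from 28511029 to 32784584 in the knockdown table. RBPMS was lower in both knockouts (log2 fold changes of −1.44 and −1.09). ANKRD10 moved as labelled in the other experiments, by 0.67 and 0.41 with ANKRD10-1 and ANKRD10-2 and by −0.24 and −0.25 with the siRNAs. ANKRD10 was also lower in both knockouts. Its mean was 86.3 CPM (counts per 1000000 counted reads) in KO1 against 194.6 in WT1, and 112.6 CPM in KO2 against 190.3 in WT2. These counts are per gene, so the transcripts of ANKRD10 were not told apart. By the text of the paper, the ANKRD10-1 and siANKRD10-2 cells had RBPMS knocked out beforehand, while the labels name the parental line alone and each table has a single control group. RBPMS passed no test in these groups (adjusted p = 0.472 for ANKRD10-1 and 0.894 for siANKRD10-2, edgeR). The 6 epithelial markers were expressed in every table (summed level 2480 to 4700 CPM). Of the urothelial markers KRT5 and GATA3 were present, while the uroplakin genes were low or absent (UPK2 at most 1.874 CPM, UPK1B 0.461 and UPK3A 0.0839). Of the leukocyte genes PTPRC and CD3E stayed at or below 0.414 CPM, and CD68, a lysosomal gene of macrophages, was at 16.05 to 23.68 CPM in the overexpression table, 9.109 to 14.73 CPM in the knockdown table and at most 1.589 CPM in the knockout table. The epithelial markers moved with siANKRD10-2, and their values stand beside that result. In bulk RNA, fewer cells of a kind and less RNA per cell cannot be told apart.

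Exonic lengths were given in the overexpression and knockdown tables only, and the same lengths were used for the knockout table. Divided by exonic length, which allows levels to be set between genes, HMGCS1 was the highest member in all 4 control groups, at 59.9 CPM per kb in WT1, 58.1 in WT2, 14.2 in Vector and 23.6 in siNC. FDFT1 followed (55.3, 53.0, 9.33 and 16.4 CPM per kb) and SQLE came next (49.97, 45.7, 9.30 and 15.01 CPM per kb). The libraries of this pair overlapped in Vector, from 8.92 to 9.71 CPM per kb for FDFT1 and from 8.93 to 9.49 for SQLE, and lay apart in the other control groups. In WT1 the next 4 members, IDI1, INSIG1, SREBF2 and DHCR7, lay between 25.7 and 29.5 CPM per kb, with libraries that overlapped from one gene to the next. LSS was lowest there, at 9.32 CPM per kb. In Vector the lowest member was DHCR7 (1.26 CPM per kb) and in siNC it was INSIG1 (4.23 CPM per kb), close to DHCR7 (4.43) and LSS (4.56). The tables were made separately, so the higher level of all members in the knockout table is a description that sets separate tables side by side. The lowest raw count of any member in any library was 158, for DHCR7 in the overexpression table, and in the knockout table no member was under 1606.

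**Figure D1:**
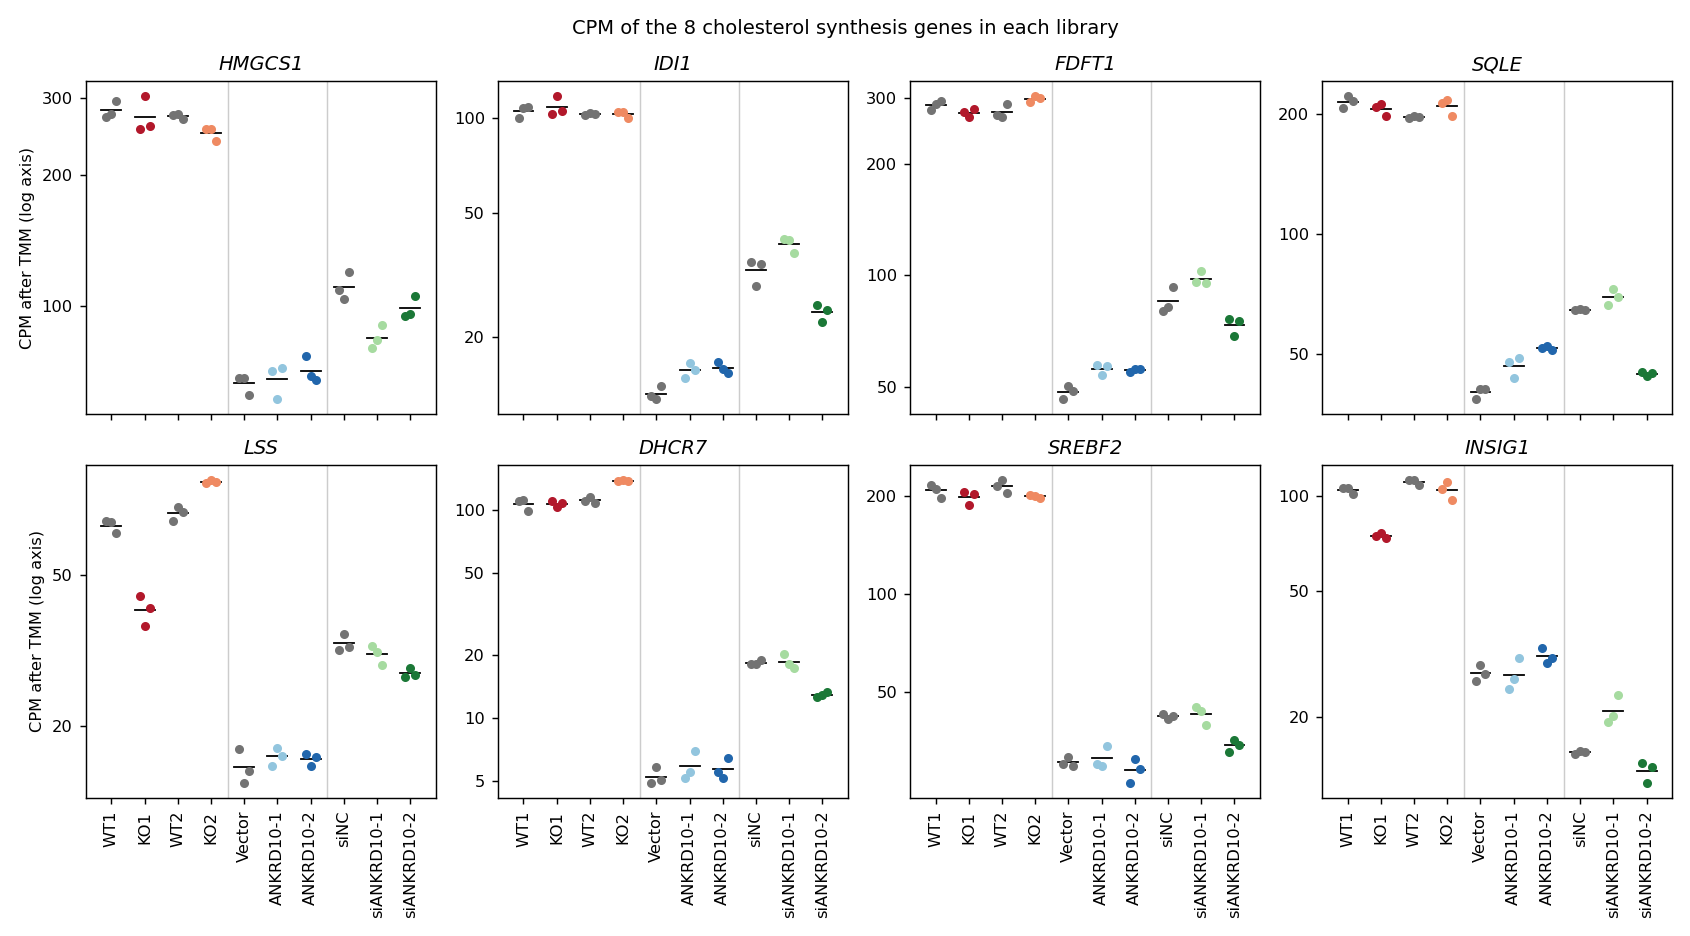
CPM after TMM normalization (log axis, a different range in each panel) of the 8 genes in all 30 libraries, with points for libraries and a bar for the mean of each group of 3. Grey points are control groups, and vertical lines separate the 3 tables. In the knockdown panels the siANKRD10-2 points lie below the siNC points for 7 of the 8 genes and overlap them for HMGCS1, and the KO1 points of LSS and INSIG1 lie below those of WT1. Overlap was not counted over all genes, of which 36.3% were called between siANKRD10-2 and siNC.

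Most of the cholesterol synthesis genes were lower after siANKRD10-2. Against siNC, all 8 members had a log2 fold change below 0 and 7 passed the test, all lower, by between 10.7% and 31.0%. INSIG1 was the exception. The median of the 8 was −0.28 on the log2 scale, where the median of all genes was 0.00. Over all 18924 genes tested 36.3% were called, 18.7% lower and 17.6% higher, so many genes changed in this comparison in both directions.

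Of the 6 enzymes among the members, SQLE, which makes the epoxide of squalene, changed most. It was at 44.9, 44.0 and 44.7 CPM with siANKRD10-2 and at 64.4, 64.8 and 64.6 CPM with siNC. The groups lay far apart and each was tight. SQLE fell by 31.0% (log2 fold change −0.54, SE 0.056, n = 3 per group, adjusted p = 2.66e-08, edgeR). DHCR7, the last reductase, was at 12.6, 12.9 and 13.4 CPM against 18.2, 18.1 and 19.0 CPM, again without overlap. This was a log2 change of −0.51 (SE 0.081, adjusted p = 1.66e-05, edgeR). IDI1, the isomerase, was at 25.4, 22.4 and 24.4 CPM against 34.8, 29.1 and 34.2 CPM. Its lowest control library was still above its highest siANKRD10-2 library, and the log2 fold change was −0.44 (SE 0.076, adjusted p = 4.49e-05, edgeR).

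The other enzymes fell less. LSS, the cyclase, was at 27.0, 28.5 and 27.3 CPM against 31.7, 35.1 and 32.4 CPM in siNC (log2 fold change −0.26, SE 0.067, adjusted p = 0.00317, edgeR). FDFT1, squalene synthase, was at 76.1, 68.6 and 75.4 CPM against 80.4, 82.1 and 93.1 CPM (log2 fold change −0.21, SE 0.062, adjusted p = 0.0078, edgeR). Neither pair of groups overlapped, but the FDFT1 call was lost without siANKRD10-2 replicate 2 (adjusted p = 0.0734). HMGCS1, at the head of the pathway, was at 95.2, 96.0 and 105.5 CPM against 109.0, 103.9 and 119.5 CPM. Its groups overlapped, the log2 fold change was −0.16 (SE 0.06, adjusted p = 0.0348, edgeR), and the call was lost without siNC replicate 3, without siANKRD10-2 replicate 1 or without siANKRD10-2 replicate 2 (adjusted p from 0.139 to 0.151). Scaling by total counts alone also ended it (−0.13, adjusted p = 0.0856).

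Of the regulators, SREBF2 was at 32.7, 35.6 and 34.2 CPM with siANKRD10-2 and at 42.8, 41.1 and 42.2 CPM with siNC. The groups did not overlap and SREBF2 fell by 18.6% (log2 fold change −0.30, SE 0.061, adjusted p = 0.000396, edgeR). INSIG1 was at 14.3, 12.4 and 13.9 CPM against 15.2, 15.6 and 15.5 CPM. The groups lay apart, but the log2 fold change of −0.19 (SE 0.086) did not pass (adjusted p = 0.0862, edgeR).

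After siANKRD10-2, 36.3% of all 18924 genes tested were called, 18.7% lower and 17.6% higher. These shares stand beside the lists here and below. Of 15 further synthesis enzymes tested, 5 were lower and none higher, with a median of −0.13. The 5, named here because the count is small, were NSDHL (−0.59) and LBR (−0.56), which act on sterols after lanosterol, CYP51A1 (−0.42), the lanosterol demethylase, MVK (−0.39), mevalonate kinase, and SC5D (−0.31), a late desaturase. Of the 7 SREBP pathway genes 4 were lower, led by MBTPS2 (−0.44), INSIG2 (−0.37) and SREBF2, and MBTPS1 was higher (0.38). MBTPS1 and MBTPS2 are the proteases that cut SREBP.

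Among 8 uptake and transport genes 4 were lower, led by STARD4 (−0.48), which carries sterol between membranes, and SOAT1 (−0.39), which esterifies cholesterol. In the same list 2 were higher, NPC2 (0.24) among them. Of 9 fatty acid synthesis genes 5 were lower, led by ELOVL6 (−0.92), FASN (−0.56) and ME1 (−0.38), and ACSS2 (0.36) and FADS2 (0.32) were higher. The isoprenoid branch had 2 lower and 2 higher of 8. Of the 4 LXR and efflux genes, 2 were lower and the exporters ABCA1 and ABCG1 passed in neither direction (0.08 and 0.11). All 6 epithelial markers were lower as well, their sum running from 2800 to 2930 CPM with siANKRD10-2 and from 4410 to 4700 CPM with siNC, the largest falls being KRT19 (−0.79, from 1008 ± 29.9 to 582 ± 16.5 CPM), KRT8 and KRT18 (−0.68 each). The urothelial marker KRT5 was at −1.06. The part of these marker changes in the result on the cholesterol genes was not tested.

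**Figure D2:**
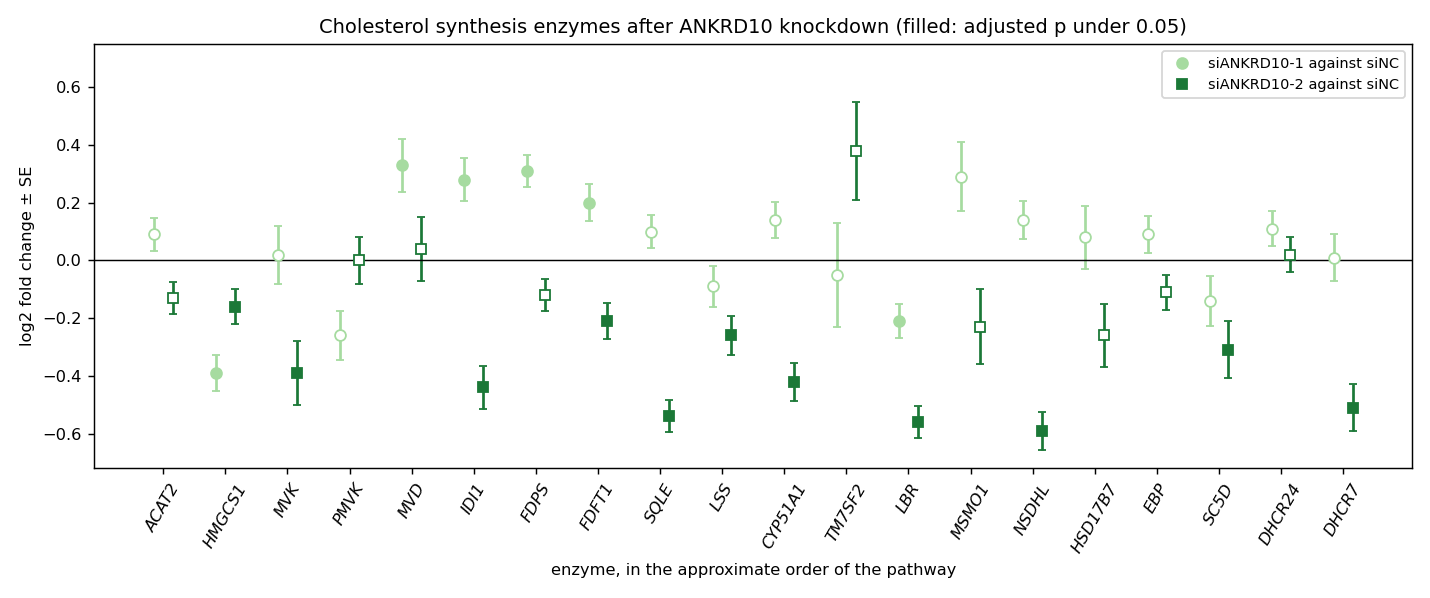
Log2 fold change (± SE from the edgeR fit, n = 3 libraries per group) of 20 of the 21 cholesterol synthesis enzymes after siANKRD10-1 (circles) and siANKRD10-2 (squares), each against siNC, in the approximate order of the pathway. Filled symbols had an adjusted p under 0.05. With siANKRD10-2, 11 enzymes were lower and none higher, while with siANKRD10-1, 4 were higher and 2 lower.

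siANKRD10-1 moved the same genes differently. Against the same siNC libraries, 3 members were higher (INSIG1, IDI1 and FDFT1) and HMGCS1 was lower, where 10.6% of all 18785 genes tested were called, 5.08% higher and 5.52% lower. The median of the 8 members was 0.06. INSIG1 was at 19.3, 20.1 and 23.4 CPM against 15.2, 15.6 and 15.5 CPM, a log2 change of 0.44 (SE 0.084, adjusted p = 0.00219, edgeR) with no overlap. IDI1 was at 41.1, 40.8 and 37.2 CPM against 34.8, 29.1 and 34.2 CPM (log2 fold change 0.28, SE 0.075, adjusted p = 0.0207, edgeR), and its call was lost without siNC replicate 2 (0.20, adjusted p = 0.168) or siANKRD10-1 replicate 1 (0.26, adjusted p = 0.112). Without either of these libraries 2 members were called in place of 4.

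HMGCS1 was at 80.2, 83.5 and 90.4 CPM with siANKRD10-1 against 109.0, 103.9 and 119.5 CPM with siNC. Every siANKRD10-1 library was below every control, and HMGCS1 fell by 23.5% (log2 fold change −0.39, SE 0.064, adjusted p = 0.000696, edgeR). FDFT1 was at 95.9, 102.5 and 95.3 CPM against 80.4, 82.1 and 93.1 CPM. Its groups did not overlap, but the log2 fold change of 0.20 (SE 0.064) lay at the threshold (adjusted p = 0.0495, edgeR) and the call was lost when any of 5 of the 6 libraries was left out (adjusted p from 0.0636 to 0.228) and with RLE factors or total counts alone (adjusted p = 0.0536 and 0.0527). SQLE (0.10), SREBF2 (0.03), DHCR7 (0.01) and LSS (−0.09) did not pass, with adjusted p from 0.277 to 0.933. Of the 15 further enzymes, MVD (0.33) and FDPS (0.31), both between mevalonate and farnesyl diphosphate, were higher and LBR (−0.21) was lower. Of the 9 fatty acid synthesis genes 2 were lower and none higher. Of the 6 epithelial markers 3 were lower, with a sum from 3720 to 4050 CPM, and their part in these results was not tested.

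The siRNAs were also compared with each other, which uses no control library. If only the siANKRD10-2 cells had RBPMS knocked out beforehand, as the paper writes, siRNA and cell background cannot be told apart here. Between siANKRD10-2 and siANKRD10-1, 7 of 8 members passed, 6 lower and 1 higher with siANKRD10-2, where 37% of 18832 genes were called, 18.8% lower and 18.2% higher. The median of the members was −0.46. IDI1 (−0.72, SE 0.07, adjusted p = 4e-08), SQLE (−0.64, SE 0.058, adjusted p = 1.62e-08) and INSIG1 (−0.62, SE 0.09, adjusted p = 8.03e-06) were the furthest apart by edgeR. DHCR7 (−0.52), FDFT1 (−0.41) and SREBF2 (−0.32) were lower too. The groups overlapped for none of these 6 genes, but overlap was not counted over all genes. HMGCS1 went the other way, higher with siANKRD10-2 (0.23, SE 0.06, adjusted p = 0.00429, edgeR), a call lost without siANKRD10-1 replicate 1 (adjusted p = 0.0545). LSS did not pass (−0.16, SE 0.069, adjusted p = 0.0732, edgeR). Of all 21 synthesis enzymes 14 were lower and 3 higher.

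**Figure D3:**
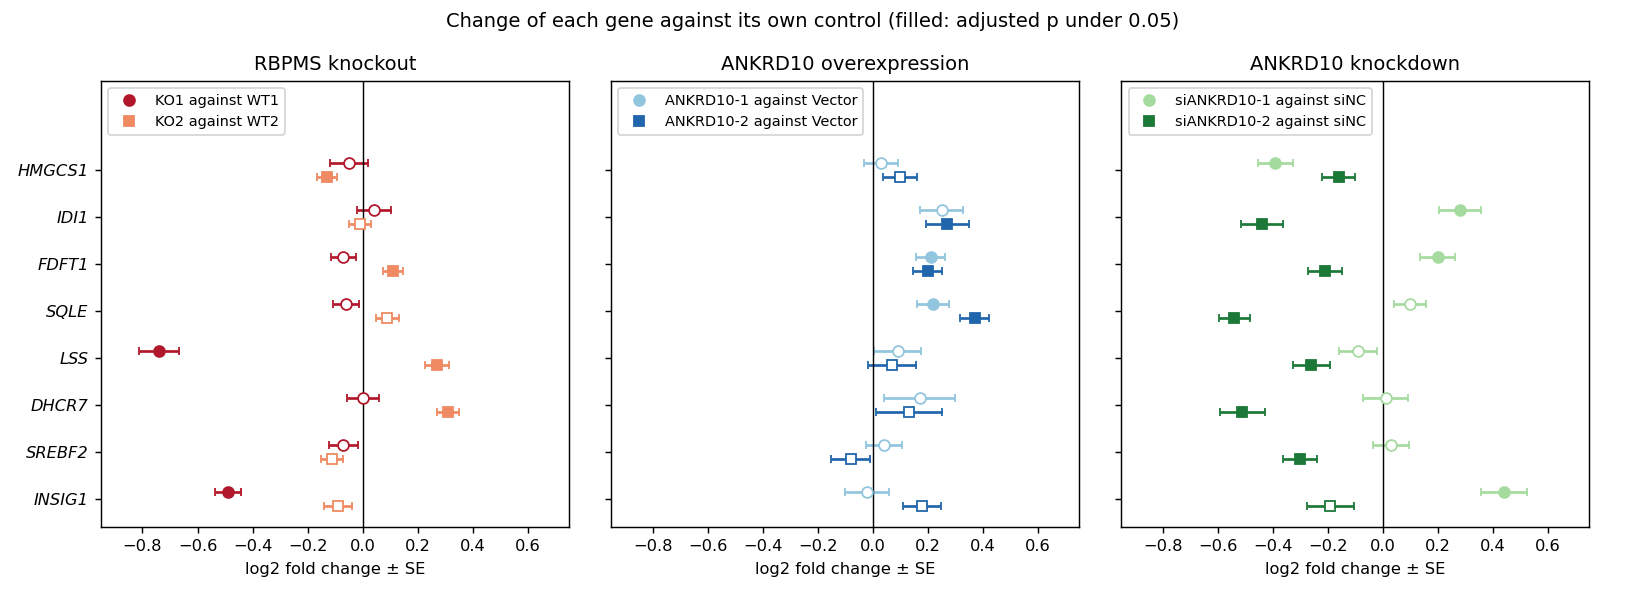
Log2 fold change (± SE from the edgeR fit, n = 3 libraries per group) of the 8 genes against their own control in the knockout, overexpression and knockdown experiments. Filled symbols had an adjusted p under 0.05. In the knockdown panel all 8 siANKRD10-2 squares lie below 0, and in the knockout panel LSS lies at −0.74 for KO1 and 0.27 for KO2.

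Overexpression moved a few members up. With ANKRD10-2, SQLE, IDI1 and FDFT1 were higher than in Vector and none was lower, where 19.9% of 20177 genes tested were called, 10.7% higher and 9.25% lower. The median of the 8 members was 0.16 and that of all genes −0.01. SQLE was at 51.6, 52.2 and 51.2 CPM against 38.4, 40.9 and 40.8 CPM in Vector. The libraries of each group lay close together with a gap between the groups, and the log2 fold change was 0.37 (SE 0.054, adjusted p = 0.000343, edgeR). IDI1 was at 16.6, 15.8 and 15.3 CPM against 12.98, 12.65 and 13.93 CPM (log2 fold change 0.27, SE 0.078, adjusted p = 0.0262, edgeR). FDFT1 was at 55.0, 55.9 and 56.1 CPM against 46.4, 50.5 and 48.8 CPM (log2 fold change 0.20, SE 0.053, adjusted p = 0.0183, edgeR). Neither overlapped with Vector, yet both calls were lost without Vector replicate 1 and under scaling by total counts alone, which left 1 member called, SQLE. IDI1 was also lost without Vector replicate 2 or ANKRD10-2 replicate 1 (adjusted p = 0.0968 and 0.073) and FDFT1 without ANKRD10-2 replicate 3 (adjusted p = 0.0597).

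INSIG1 was at 33.0, 29.7 and 30.8 CPM with ANKRD10-2 against 25.9, 29.3 and 27.3 CPM, a log2 change of 0.18 (SE 0.069) that did not pass (adjusted p = 0.0801, edgeR). DHCR7 (0.13), HMGCS1 (0.10), LSS (0.07) and SREBF2 (−0.08) were within the spread of the libraries, with overlapping groups and adjusted p from 0.29 to 0.615. Of the 15 further enzymes MSMO1, a demethylase of sterol intermediates, was higher (0.38) and none was lower. SREBF1, the SREBP gene tied mainly to fatty acid synthesis, was lower (−0.28). Of the 4 LXR and efflux genes 3 were lower, ABCA1 (−0.43), NR1H2 (−0.40) and ABCG1 (−0.39). Of the 6 epithelial markers 4 were higher, with a sum from 2800 to 3200 CPM against 2480 to 2660 CPM in Vector, and their part in these results was not tested.

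With ANKRD10-1, 2 members were higher than in Vector, SQLE and FDFT1, where 6.31% of 20457 genes were called, 3.5% higher and 2.81% lower. SQLE was at 47.6, 43.4 and 48.8 CPM against 38.4, 40.9 and 40.8 CPM (log2 fold change 0.22, SE 0.058, adjusted p = 0.0315, edgeR). FDFT1 was at 57.4, 54.0 and 56.9 CPM against 46.4, 50.5 and 48.8 CPM (log2 fold change 0.21, SE 0.053, adjusted p = 0.0234, edgeR). Neither pair overlapped. Both calls were lost, leaving 0 members, without ANKRD10-1 replicate 1, without ANKRD10-1 replicate 3, without Vector replicate 1 and under scaling by total counts alone. Without Vector replicate 2 the SQLE call was lost and 1 member remained. IDI1 was at 14.8, 16.5 and 15.7 CPM against 12.98, 12.65 and 13.93 CPM, and its log2 fold change of 0.25 (SE 0.078, adjusted p = 0.07, edgeR) passed when Vector replicate 3 was left out (0.29, adjusted p = 0.0389). The other 5 members lay between −0.02 and 0.17 with overlapping groups. Of the further enzymes ACAT2, which makes the acetoacetyl-CoA used by HMGCS1, was higher (0.23), and 3 of the 6 epithelial markers were higher as well, with a sum from 2780 to 2850 CPM. Of the SREBP pathway genes SREBF1 was higher (0.34) and INSIG2 lower (−0.36).

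Compared directly, ANKRD10-2 against ANKRD10-1 gave 0 members called by edgeR, where 7.26% of 20052 genes passed, 4.15% higher and 3.1% lower. If only the ANKRD10-1 cells had RBPMS knocked out beforehand, as the paper writes, transcript and cell background cannot be told apart here. An unadjusted p under 0.05 was reached by 2 of the 8, SQLE (0.15) and INSIG1 (0.20), each with an adjusted p of 0.139, and DESeq2 also called 0 of the 8. SQLE was at 46.6 ± 2.82 CPM in ANKRD10-1 and 51.7 ± 0.516 CPM in ANKRD10-2, and these groups did not overlap. INSIG1 passed when ANKRD10-1 replicate 3 was left out (0.29, adjusted p = 0.0374). Across this table the split of all calls depended on the scaling. With TMM 55.5% of the ANKRD10-1 calls, 53.5% of the ANKRD10-2 calls and 57.3% of the calls between them were higher, and with total counts alone these shares were 30.8%, 27.6% and 38.4%.

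In the RBPMS knockouts 2 of the 8 members were called in KO1 and 4 in KO2, and the knockouts parted most at LSS. In KO1, LSS and INSIG1 were lower than in WT1 and no member was higher, where 36.1% of 17865 genes tested were called, 18.2% lower and 17.9% higher. In KO2, DHCR7, LSS and FDFT1 were higher than in WT2 and HMGCS1 was lower, where 38.5% of 18267 genes were called, 19.3% higher and 19.2% lower. The members' medians were −0.07 and 0.04. The epithelial markers summed to 2960 to 3160 CPM in KO1 and 3090 to 3150 CPM in WT1, and to 2980 to 3140 CPM in KO2 and 3040 to 3230 CPM in WT2. Within these sums 2 of the 6 were higher in KO1, and 3 were higher and 2 lower in KO2, with KRT7 at 0.43 and KRT19 at −0.42. Of the urothelial markers GATA3 was lower in both (−1.35 in KO1 and −0.76 in KO2) and KRT5 was higher in KO1 (0.46). The fibroblast list was lower in KO1 (31.2 to 36.4 CPM against 52.0 to 56.0 CPM, mostly COL1A1), and the part of these marker changes in the results was not tested.

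LSS was at 44.1, 36.6 and 40.8 CPM in KO1 and at 69.3, 68.8 and 64.3 CPM in WT1. All KO1 libraries were far below all WT1 libraries, and LSS fell by 39.9% (log2 fold change −0.74, SE 0.072, adjusted p = 1.98e-05, edgeR). In KO2 it was at 87.1, 89.0 and 87.6 CPM against 69.3, 75.3 and 73.4 CPM in WT2, again without overlap but upward (log2 fold change 0.27, SE 0.045, adjusted p = 0.000483, edgeR). LSS was the only member called in both knockouts.

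LSS (ENSG00000160285) lies at chr21:46188141-46228824 of GRCh38 on the minus strand, toward the end of the long arm, and the genes around it moved in the same directions. In KO1 the other 201 genes tested on chromosome 21 had a median log2 fold change of −0.27 and the 68 within 5 Mb of LSS a median of −0.37, with 51 of the 68 below 0 and 30 called lower against 4 called higher. LSS was 0.37 below that local median, and 14 of the 68 were at or below its value. In KO2 the 209 other genes of the chromosome had a median of 0.15 and the 72 neighbours a median of 0.27, the same as LSS, with 54 above 0 and 33 called higher against 4 lower. After siANKRD10-2 the medians around LSS were near 0 (−0.01 for the chromosome and −0.01 within 5 Mb). Around the other members, the medians within 5 Mb ran from −0.13 for SQLE and −0.09 for IDI1 to 0.06 for DHCR7. The part of the regional shift in the LSS change in the knockouts was not tested, nor was that of the other local medians.

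INSIG1 (chr7:155297776-155310235, plus strand) was at 74.8, 76.4 and 73.5 CPM in KO1 and at 106.5, 106.1 and 101.9 CPM in WT1. The groups were well apart and INSIG1 fell by 28.6% (log2 fold change −0.49, SE 0.048, adjusted p = 2.18e-05, edgeR). The 52 genes tested within 5 Mb had a median of −0.01. In KO2 it was at 105.2, 111.2 and 97.6 CPM against 112.5, 112.7 and 108.2 CPM, an overlap, and did not pass (−0.09, SE 0.051, adjusted p = 0.186, edgeR).

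DHCR7 (chr11:71428193-71452868, minus strand) was at 137.8, 139.9 and 137.8 CPM in KO2 and at 111.1, 115.7 and 107.8 CPM in WT2. The groups did not overlap, the log2 fold change was 0.31 (SE 0.04, adjusted p = 6.75e-05, edgeR), and the 142 neighbours had a median of 0.07. In KO1 DHCR7 stood at 107.1 ± 3.33 CPM and in WT1 at 107.1 ± 7.07 CPM (0.00, SE 0.058). HMGCS1 was at 254.6, 255.1 and 239.6 CPM in KO2 against 274.1, 275.7 and 269.4 CPM in WT2 (log2 fold change −0.13, SE 0.036, adjusted p = 0.0116, edgeR), and this small fall was lost without KO2 replicate 3 (−0.10, adjusted p = 0.0605) and when all 12 libraries entered 1 fit (adjusted p = 0.0971). FDFT1 was at 292.3, 303.9 and 299.7 CPM against 270.0, 267.6 and 289.3 CPM (log2 fold change 0.11, SE 0.038, adjusted p = 0.035, edgeR), a call lost without any of 4 single libraries, with no filter, with total counts alone and against all 6 WT libraries. The genes within 5 Mb of FDFT1 had a median of −0.14 in KO1 and 0.04 in KO2. SREBF2 in KO2 narrowly missed the threshold (−0.11, SE 0.04, adjusted p = 0.051, edgeR) and was called by DESeq2 (adjusted p = 0.0358), with 200.3 ± 2.7 CPM against 215.0 ± 9.94 CPM and no overlap. SQLE and IDI1 passed in neither knockout.

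Over all genes tested, 36.1% were called in KO1 and 38.5% in KO2. Of the 15 further enzymes, KO1 had 3 lower, led by TM7SF2 (−0.47) and SC5D (−0.41), and LBR (0.24) and FDPS (0.16) higher. In KO2, 4 were lower and 4 higher, with TM7SF2 at 0.47 and SC5D at −0.33. The cholesterol exporter ABCA1 was higher in KO1 (0.69) and lower in KO2 (−1.05), and ABCG1 was lower in both (−1.67 and −0.66). SREBF1 was lower in KO2 (−0.67).

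**Figure D4:**
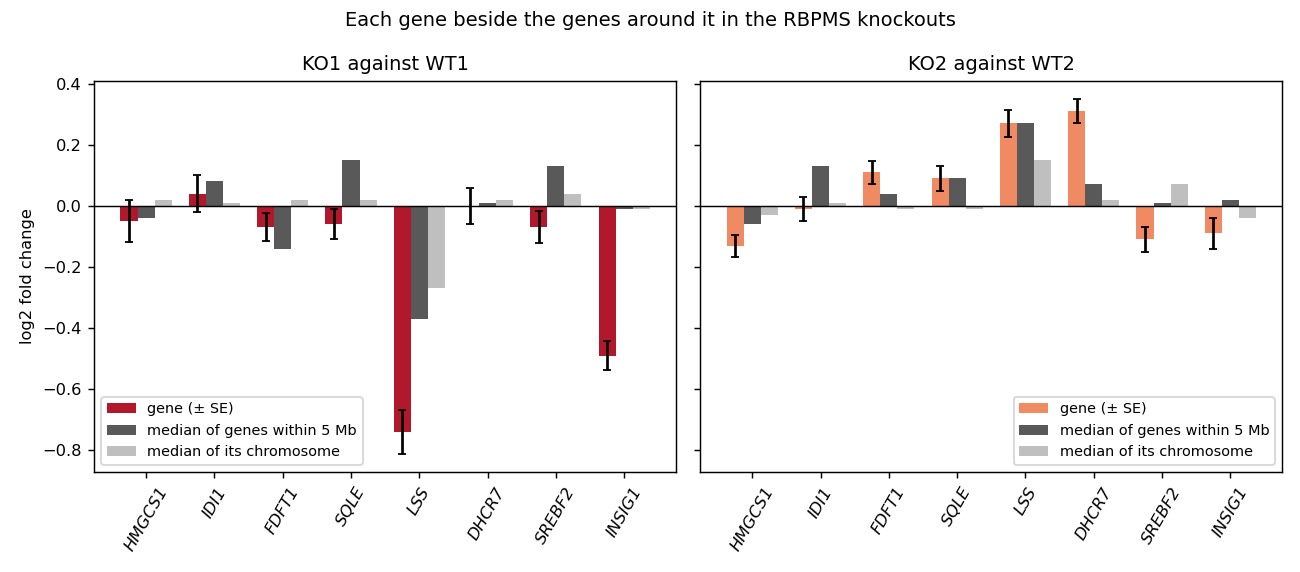
Log2 fold change of each of the 8 genes (colored bars, ± SE) in KO1 and KO2 beside the median of all other tested genes within 5 Mb (dark grey) and on its chromosome (light grey). Around LSS the medians moved in the direction of the gene, to −0.37 in KO1 and 0.27 in KO2, while around INSIG1 in KO1 they stayed at −0.01.

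Tested as a difference of the changes over all 12 libraries of the table, KO1 and KO2 parted at 4 of the 8 members, all with the lower value in KO1, where 23.3% of 19189 genes were called, 12.1% lower and 11.2% higher. These were LSS (−1.01, SE 0.086, adjusted p = 3.75e-07), INSIG1 (−0.40, SE 0.068, adjusted p = 0.000423), DHCR7 (−0.31, SE 0.07, adjusted p = 0.00367) and FDFT1 (−0.18, SE 0.057, adjusted p = 0.0277), all by edgeR. The FDFT1 difference matched that of the 44 genes tested within 5 Mb of it, which had a median of −0.19, and was lost without any of 7 single libraries and with no filter (adjusted p = 0.0852). The genes around LSS had a median difference of −0.58, with 36 of 72 called lower and 1 called higher. Around INSIG1 and DHCR7 the median difference was −0.05 each. The part of the regional shifts in the LSS and FDFT1 differences was not tested. Of the pathway lists, the difference also passed for TM7SF2 (−0.94) among the enzymes and for ABCA1 (1.74). The WT groups differed by less. WT2 against WT1 gave 0 of 8 members by edgeR, where 1.23% of 18335 genes passed, and the largest change was that of SQLE (−0.13, adjusted p = 0.175). SQLE was the 1 member with an unadjusted p under 0.05, and DESeq2 called it (adjusted p = 0.0302). SQLE was at 207.5, 222.2 and 215.8 CPM in WT1 and at 195.8, 198.1 and 196.9 CPM in WT2.

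Over all 30 libraries, each member was expressed as log2 CPM minus the mean of its own control group. SQLE, IDI1 and FDFT1 followed each other most closely (Pearson r of 0.88 for SQLE and IDI1, 0.86 for SQLE and FDFT1, and 0.83 for IDI1 and FDFT1), and DHCR7 followed SQLE (0.77). HMGCS1 followed none closely (r from −0.20 with INSIG1 to 0.31 with SQLE). The median of the 28 pairs was 0.46. These values describe libraries that share groups, controls and scaling. Among 13215 genes tested in all 6 comparisons with a control, those with a pattern most like the mean of the members over the 30 libraries included C1orf116 (r = 0.94), BSG, KRT17 and SRI (0.92 each). C1orf116 was at −1.12 after siANKRD10-2, −0.50 in KO1 and 0.34 with ANKRD10-2, and KRT17, a basal keratin, at −0.91, −0.33 and 0.28. In KO2, with ANKRD10-1 and with siANKRD10-1, C1orf116 was at 0.01, 0.12 and 0.10 and KRT17 at −0.18, 0.05 and 0.11. Both were picked by their likeness over these same libraries, so their values are a description only.

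The remaining positions on GRCh38 were chr5:43289395-43313512 for HMGCS1 (minus strand), chr22:41833079-41907308 for SREBF2 (plus strand) and chr10:1039908-1049170 for IDI1 (minus strand), as the overexpression and knockdown tables give them. Overlapping genes on the opposite strand took few reads, a mean of at most 35.3 counts per library in the knockout table (AP002387.1, opposite DHCR7), where the member with the lowest count had 1606.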

How the data were processed

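Poly(A) RNA of 5637 cells was sequenced in 30 libraries. The authors deposited 3 tables of raw counts per gene, not normalized. They trimmed reads with Cutadapt and Trimmomatic (0.36 in the submitters' processing notes) and aligned with HISAT2. Their methods name StringTie, and the processing notes name featureCounts of Subread 1.5.1 and GRCh38. The overexpression and knockdown tables also give exonic gene lengths. Whether counting used the strand is not given in the sources used here. All columns were assigned to samples by their labels.

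Counts were analysed in R 4.3.3 with edgeR 4.0.16. In each of 10 comparisons, the libraries of the groups compared were filtered (filterByExpr, minimum count 10, minimum total 15), scaled by TMM and tested by the quasi-likelihood test (prior count 0.125), with the Benjamini-Hochberg adjusted p taken across every gene that passed the filter and a threshold of 0.05. The standard error is the log2 fold change divided by the root of the F statistic. CPM values were scaled by TMM over each table. DESeq2 1.42.0, the tool the authors name, was an alternative. The procedure was tested on simulated data. Replicates with the same number correlated between −0.033 and 0.079 over 36 pairs, so numbers were not taken as pairs.

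The members, the gene lists and the markers were chosen with earlier results of these data known. The 8 members, RBPMS and ANKRD10 are named throughout, and of each list at most 3 higher and 3 lower genes with the largest change among those called, with exceptions stated. Some genes that this rule names are not reported here, though they count in the lists. Correlations used log2(CPM + 0.1). Gene names and positions in the knockout table come from GENCODE v29, which named 60401 of 60612 identifiers. Promoters come from RefSeq.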

Additional observations from a re-analysis of the deposited data

Results flagged for a closer look

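The difference between the changes in KO1 and KO2 passed the test (edgeR, interaction term over 12 libraries) for 4 members. For LSS it was −1.01 on the log2 scale, from −0.74 in KO1 and 0.27 in KO2, and the 72 genes within 5 Mb had a median difference of −0.58. For INSIG1 it was −0.40, from −0.49 and −0.09. For DHCR7 it was −0.31, from 0.00 and 0.31. For FDFT1 it was −0.18, from −0.07 and 0.11, the 44 genes within 5 Mb had a median difference of −0.19, and this call was lost without any of 7 single libraries. Groups of 3 libraries are too small for a test of single outlying libraries.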

How the results depend on the processing

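Member values were recomputed under every alternative (RLE factors, total counts alone, no filter, DESeq2, all groups of a table in 1 fit, all 6 WT libraries, a replicate block, each library left out), 1016 values in all: 923 kept their direction and side of the threshold, 48 lost the call, 11 gained one and 34 changed sign, none of the last in a member called in the comparison as reported. Asking for a log2 fold change of at least 1 left 0 members in each comparison with a control and between the siRNAs, and 1 in the difference between knockouts. Over all genes it left 1149 in KO1, 1095 in KO2, 80 with ANKRD10-1, 241 with ANKRD10-2, 69 with siANKRD10-1, 500 with siANKRD10-2, 72 between the ANKRD10 transcripts, 514 between the siRNAs, 16 between WT2 and WT1 and 1059 in the difference. Total counts alone gave 0 members with ANKRD10-1 and 1 with ANKRD10-2. Between WT2 and WT1, 226 genes were called as reported, 88 with no filter and 690 by DESeq2, 1 of these a member. The cause of these shifts was not tested. With each library left out in turn, members called ranged from 0 to 3 with ANKRD10-1, 1 to 3 with ANKRD10-2, 2 to 4 with siANKRD10-1 and 0 to 1 between the transcripts, and genes called from 700 to 1549, 2617 to 3533, 949 to 2430 and 694 to 1396 in the same order, and from 71 to 133 between WT2 and WT1. The lowest counts came without ANKRD10-1 replicate 1 (700) and without Vector replicate 1 or 2 (2617 each). With siANKRD10-2 against siNC, HMGCS1 was lost without any of 3 single libraries and FDFT1 without 1 of them, siANKRD10-2 replicate 2. In KO2, FDFT1 was lost without any of 4 single libraries and HMGCS1 without 1, while SQLE and SREBF2 each passed without 1. In the difference between knockouts FDFT1 was lost without any of 7, and SQLE passed without 1.

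Signs changed only in members near 0. Under other fits these were SQLE in KO1 against all 6 WT libraries (0.00), DHCR7 in KO1 with all groups or the replicate block (0.00), and, with total counts alone, IDI1 in KO1 (−0.01), HMGCS1 (−0.01) and SREBF2 (0.00) with ANKRD10-1, LSS with ANKRD10-2 (−0.01) and IDI1 between the transcripts (−0.01). With a library left out the ranges that crossed 0 were −0.05 to 0.03 for DHCR7 and −0.02 to 0.07 for IDI1 in KO1, −0.02 to 0.02 for IDI1 in KO2, −0.01 to 0.10 for HMGCS1, −0.11 to 0.06 for INSIG1 and −0.02 to 0.08 for SREBF2 with ANKRD10-1, and −0.01 to 0.08 for SREBF2 and −0.06 to 0.06 for DHCR7 with siANKRD10-1. Between the transcripts they were −0.13 to 0.10 for DHCR7, −0.04 to 0.01 for FDFT1, −0.02 to 0.06 for IDI1, −0.06 to 0.02 for LSS and 0.00 to 0.11 for HMGCS1, and in the difference between knockouts −0.02 to 0.08 for IDI1, 0.00 to 0.13 for HMGCS1 and 0.00 to 0.08 for SREBF2.

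The replicate numbers share only a label (r from −0.033 to 0.079 over 36 pairs). With the replicate block, 2 members were called in KO1, 5 in KO2 (SREBF2 added), 2 with ANKRD10-1, 3 with ANKRD10-2, 4 with siANKRD10-1, 7 with siANKRD10-2, 0 between the transcripts, 7 between the siRNAs, 0 between WT2 and WT1 and 4 in the difference. Groups of 3 libraries and member counts down to 158 limit the precision.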

Other observations

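Related gene lists moved in other ways in the knockouts. Of 9 fatty acid synthesis genes, 5 were higher and none lower in KO1, led by ME1 (0.76). In KO2, 3 were higher and 4 lower, with ACLY at 0.34 and FADS2 at −0.42. Over all genes tested, 17.9% were higher and 18.2% lower in KO1, and 19.3% and 19.2% in KO2. Of the 8 genes of the isoprenoid branch, 3 were higher and 1 lower in KO1, and 3 were higher and 3 lower in KO2. DHDDS (0.32 and 0.28), NUS1 (0.32 and 0.30) and PDSS1 (0.53 and 0.38) were higher in KO1 and in KO2. GGPS1, which makes geranylgeranyl diphosphate, was lower in both (−0.27 and −0.21), and FNTA and PDSS2 were called lower in KO2 only.

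Counted by gene and with members included, the NF-Y box letters CCAAT were found for 13 of the 16 synthesis enzymes with a promoter window. The sterol regulatory element letters were found for 0 of 16 and the E-box for 2 of 16. Of all windows, counted singly, 34.61%, 1.13% and 7.26% held these letters in the same order. The lack of an exact match does not show that an element is absent.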
